A study of Saccharomyces cerevisiae with 25 samples.

Results

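The genes described here are the nuclear genes named for proteins of the yeast mitochondrial ribosome. They were chosen by symbol alone, as every name made of MRPL, MRPS, MRP or RSM followed by digits, which gave 66 of the 6648 gene names in the data. Of these, 37 encode proteins of the large subunit and 28 of the small subunit, and MRP8 was not assigned to either, because it carries the name from an early sequence comparison and is not an established part of the ribosome. The libraries came from 1 time course of Saccharomyces cerevisiae in the BY4741 background, with genotype pho84pr-YFP, delta-phm3. The YFP reporter runs from the promoter of PHO84, the high-affinity phosphate transporter gene, and PHM3 is an older name of VTC4, which encodes the polyphosphate polymerase of the vacuole. All 25 libraries carry this genotype, so the course holds no wild type. In time order they are 1 library from high phosphate medium (0 min) and 24 libraries taken every 15 min after a wash and transfer to medium without phosphate (15 to 360 min).

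The mitochondrial ribosome translates the few proteins that the mitochondrial genome encodes, which are mostly core subunits of the respiratory chain and the ATP synthase. Nearly all of its own proteins are encoded in the nucleus, made on cytosolic ribosomes and imported. In yeast, genes of cytosolic ribosomal proteins are known to be turned down together when nutrients run short. Messages of mitochondrial ribosomal proteins are known targets of Puf3, an RNA-binding protein that recognises a short motif in the 3' untranslated region and controls the decay, the translation and the localisation of the message.

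Values are given on a log2 scale of reads per 1000000 listed reads of a library (log2 RPM), so each is a share of its library. The shallowest library held 106672 reads (195 min), the deepest 1911742 (105 min) and the median library 746730, and the third-lowest depth was 501479 reads. Genes with fewer than 10 reads carry no value, and 44 of the 47 gaps among the members fell in the shallow libraries of 195 min (30 gaps) and 345 min (14 gaps). Every member was listed in at least 21 of the 25 libraries, 33 were listed in all, and a member with a value had between 10 and 544 reads, with a median of 63. VTC4, which the genotype label gives as deleted, was listed in all 25 libraries at 8.04 ± 0.24 log2 RPM (SD, n = 25), so the libraries are described by their label, phm3_del. MFA1, which marks MATa cells such as BY4741, averaged 10.7 log2 RPM, while MF(ALPHA)1 and MF(ALPHA)2, which mark MATalpha cells, were listed in 1 library and in 0. The other MATalpha markers looked up had low values in most libraries, STE3 in 22 (mean 4.85 log2 RPM) and SAG1 in 19 (mean 4.34). In bulk RNA, fewer cells expressing a gene and less of its RNA per cell cannot be told apart.

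What the members share outside the expression values was a motif downstream of the coding sequence. TGTANATA, the core motif of Puf3, stood on the mRNA strand within 200 bases after the stop codon in 64 of 66 members (97.0%), against 13.1% of 5936 other protein-coding genes and 6 of 138 cytosolic ribosomal protein genes (4.35%). The members without it were MRP8 and RSM22, a small subunit protein related to methyltransferases. On the opposite strand the same letters were found in 19.7% of members and 13.1% of other genes. The following stretches of 30 bases, read from the RefSeq R64 genome on the mRNA strand from 5' to 3' with the motif in capitals, were chosen as examples of each of its 4 spellings, 7 of them from members that rose or fell in a comparison given later.
RSM10: gatttcgtactTGTAAATAaaataggtgaa
RSM26: atcttatatacTGTAAATAgttttatttta
MRPL39: ttcatttatccTGTAAATAagtaatggata
MRP2: ggatacgcactTGTAAATAaatacatgata
MRPS16: tatgtatatgtTGTATATAtgttttacttg
MRPL24: tggttttccccTGTATATAaaaaagcatat
MRPL10: atattctcactTGTACATAccttaagatat
MRPL3: gtttgccatttTGTAGATAgagaactcctt

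These stretches lie at chrIV:540462-540491 (plus strand) for RSM10, chrX:619111-619140 (plus) for RSM26, chrXIII:251207-251236 (minus) for MRPL39 and chrXVI:876214-876243 (minus) for MRP2. Those of the other genes lie at chrXVI:528881-528910 (minus) for MRPS16, chrXIII:650856-650885 (plus) for MRPL24, chrXIV:103075-103104 (minus) for MRPL10 and chrXIII:323054-323083 (plus) for MRPL3. Each is annotated only as sequence downstream of the coding region, and the transcript ends are not in the annotation used. A match is a description of the letters and not a measurement of binding.

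The motif was also placed and spelled differently in the members than in other genes that carry it. Its nearest copy began a median of 51 bases after the stop codon (range 8 to 139) in 64 members and 60 bases (range 1 to 193) in 780 other genes, and it lay within 100 bases in 93.8% of members and 73.8% of other genes. The variable base was A in 32 members, T in 19, C in 12 and G in 1, so A led with 50% of members, while among other genes T led with 50.6% and A had 26.8%. The second base before the motif was C in 45 members (70.3%) and in 25.4% of other genes, and a C there is known as part of the sequence Puf3 prefers. A single copy was found in 51 members, 2 copies in 12 and 3 copies in 1.

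**Figure D1:**
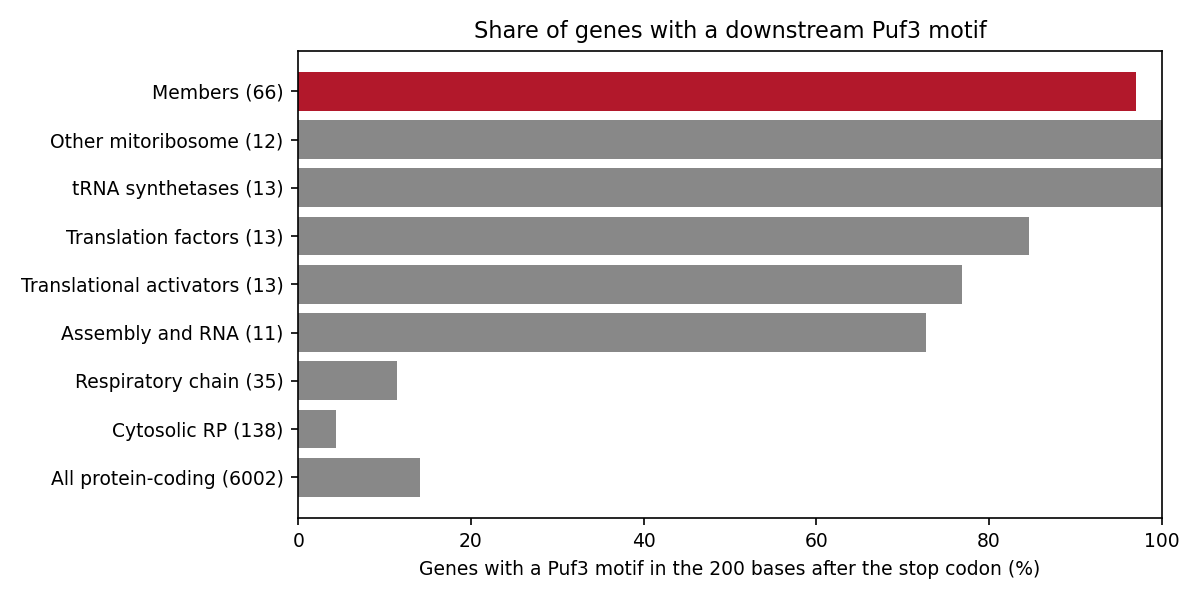
Share of genes (%) with TGTANATA on the mRNA strand in the 200 bases after the stop codon, by gene set, with the number of genes in brackets. The 66 members stand at 97.0%, near other genes of mitochondrial translation, while the respiratory chain (11.4%) and cytosolic ribosomal proteins (4.35%) stand below all protein-coding genes (14.1%).

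Other genes of mitochondrial translation mostly carried the motif too. It was present in 12 of 12 nuclear mitochondrial ribosomal protein genes whose names fall outside the naming rule, in 13 of 13 mitochondrial tRNA synthetase genes and in 11 of 13 translation factor genes. It was present in 10 of 13 translational activators, 8 of 11 genes for assembly and modification of the mitochondrial ribosome, and 4 of 35 nuclear respiratory chain genes.

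Upstream of the start codon, AAAATTTT was scarce among the members, and the other motifs searched stood in shares near those of all genes. Within 300 bases and on either strand, AAAATTTT, the ribosomal RNA processing element, was found in 2 of 66 members (3.03%), MRPL16 and MRPS16, against 6.52% of cytosolic ribosomal protein genes and 9.41% of all 6002 protein-coding genes. GATGAG, the PAC motif of ribosome biogenesis genes, stood in 18.2% of members and 19.1% of all genes. CCAAT, the core letters bound by the Hap2/3/4/5 activator of respiration genes, stood in 36.4% of members, 88.6% of respiratory chain genes and 41.8% of all genes.

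The members differed widely in level. Corrected for gene length, the highest mean levels over the libraries were those of MRPS16 (10.02 log2 RPM per kb), RSM27 (9.43) and MRPL37 (9.41), and the lowest those of MRPL4 (4.27), RSM22 (4.50) and MRPL1 (4.87). MRPS16 is a homologue of a bacterial small subunit protein, whereas RSM27 and MRPL37 have no bacterial counterpart. MRPL4 belongs to a family of proteins near the exit of the peptide tunnel, and MRPL1 to the family that forms the mobile stalk of the large subunit. VAR1, the ribosomal protein gene of the mitochondrial genome itself, and the other mitochondrial protein genes among 19 with an entry were listed in 0 libraries, so transcripts of both genomes were not compared.

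Over the whole course, the members stayed close to the median of all genes while cytosolic ribosomal protein genes fell. At 255 to 360 min against high phosphate, the median difference of the 66 members was 0.29 (log2), against -2.92 for 137 cytosolic ribosomal protein genes and 0.42 for all 4613 tested genes. Differences were tested with limma and called at a Benjamini-Hochberg adjusted p under 0.05 over all tested genes. Of the 66 members, 6 rose (25% of all tested genes were called higher) and 0 fell by limma at this threshold (5.46% of all tested genes were called lower). At an unadjusted p under 0.05, 13 of 66 members differed (1882 of all 4613 genes did), and 55 of 66 members had a difference above 0 (3311 of 4613 genes did). Of the cytosolic ribosomal protein genes, 135 of 137 fell and 1 lay above 0, by 0.75. These genes were chosen by symbol alone, as RPL, RPS or RPP with digits and an optional A or B. A gene of another function may therefore be among them. The subunits were alike in their medians, 0.28 with 3 of 37 called higher in the large subunit and 0.29 with 2 of 28 in the small subunit, and MRP8 was the remaining call. Every difference from high phosphate rests on a single library at 0 min, which is assumed to vary like the others, and the labels do not say that the time points came from separate cultures and neighbouring times are not independent, so the p-values cover no more than the spread among these libraries.

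Since values are shares of reads, the fall of the cytosolic ribosomal protein genes bears on every other gene. Their summed share of reads had a median of 5.20% at 255 to 360 min, against 34.3% at 0 min. The summed share of the members had a median of 0.671% at 255 to 360 min, against 0.489% at 0 min. Counted among reads outside the cytosolic ribosomal protein genes, the members held 0.704% at 255 to 360 min, 0.739% at 135 to 240 min and 0.875% at 15 to 120 min (medians of 8 libraries each), against 0.745% at 0 min. With each library centred on its median gene, the median difference at 255 to 360 min was -0.26 for the members and -0.14 for all tested genes. In that setting 1 member was called higher (RSM10) and 2 lower, where 8.50% of all genes were called higher and 9.58% lower. With libraries centred on genes listed in every library, the medians were -0.09 for the members and 0.03 for all tested genes. There 2 members were called higher and 1 lower, where 13.7% of all genes were called higher and 8.80% lower.

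**Figure D2:**
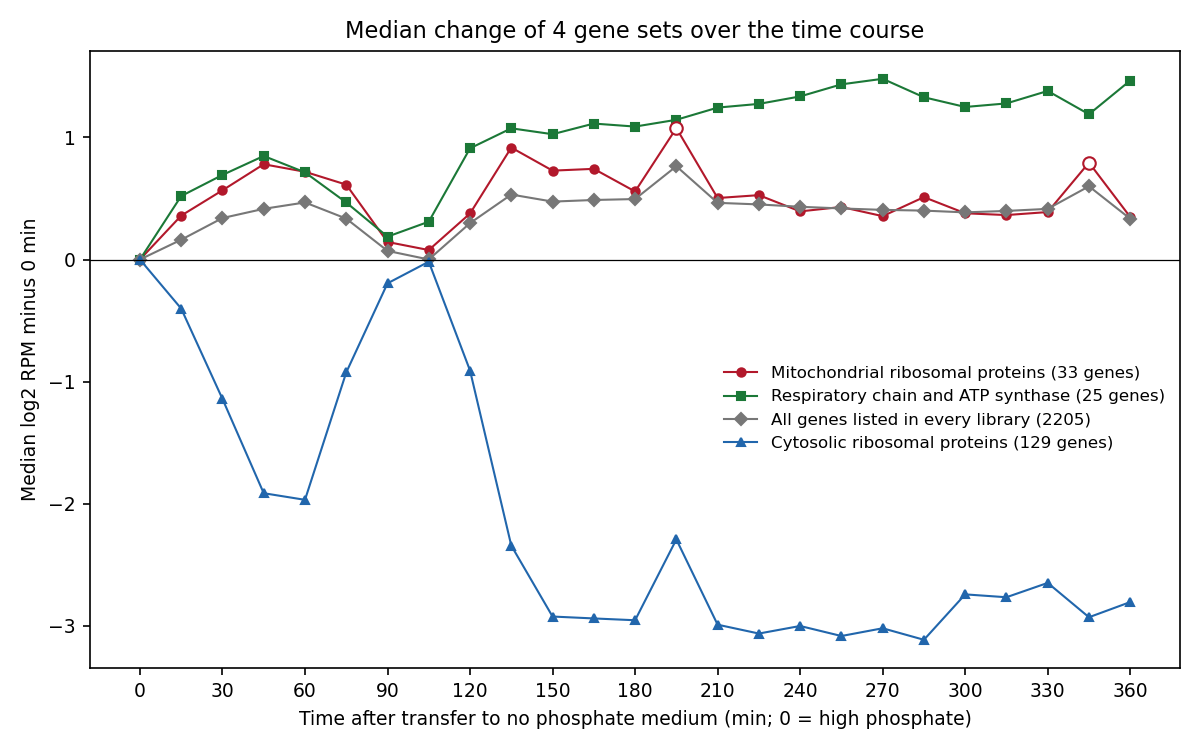
Median change from 0 min (log2 RPM) at each time (min) for genes listed in every library: 33 mitochondrial ribosomal proteins, 25 respiratory chain genes, all 2205 genes and 129 cytosolic ribosomal proteins. Open red circles mark the shallow libraries of 195 and 345 min. The members move with the median gene in the last window and above it at 45 and 135 min, where cytosolic ribosomal proteins are low.

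The time course of the members had 2 high stretches with a low point between them. The next values are medians over the 64 members listed in every library except those of 195 and 345 min, as changes from 0 min. They stood at 0.31 at 15 min, 0.70 at 45 min and 0.66 at 60 min. They returned to 0.10 at 90 min and 0.00 at 105 min, close to the starting level, and reached 0.81 at 135 min, the highest of these libraries. From 255 to 360 min they lay between 0.27 and 0.36, below the median of all 3982 genes listed in the same libraries (0.36 to 0.42).

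Cytosolic ribosomal protein genes went the other way at the same times. Their median was -1.92 at 45 min, -0.02 at 105 min and -2.36 at 135 min, and it stayed between -3.14 and -2.65 from 255 to 360 min. The median of all genes also moved, with 0.36 at 45 min, -0.02 at 105 min and 0.43 at 135 min, so a part of the members' course was common to most genes. Relative to that median, the members lay 0.02 to 0.34 above it at 15 to 120 min, between -0.10 and 0.38 at 135 to 240 min and between -0.11 and -0.03 at 255 to 360 min.

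Single members followed this course to different degrees. Over the 23 libraries that remain when those of 195 and 345 min are left out, the highest value of a member fell at 30 to 75 min in 27 members, at 135 to 165 min in 27, at 255 to 360 min in 7 and at other times in 5. Over the same 23 libraries, the lowest value fell at 0, 90 or 105 min in 35 members, 18 of them at 0 min, and at 255 to 360 min in 21. These stretches follow the course described above, and the same counts were not made over all genes. Whether the members differ from other genes in these times was not tested.

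**Figure D3:**
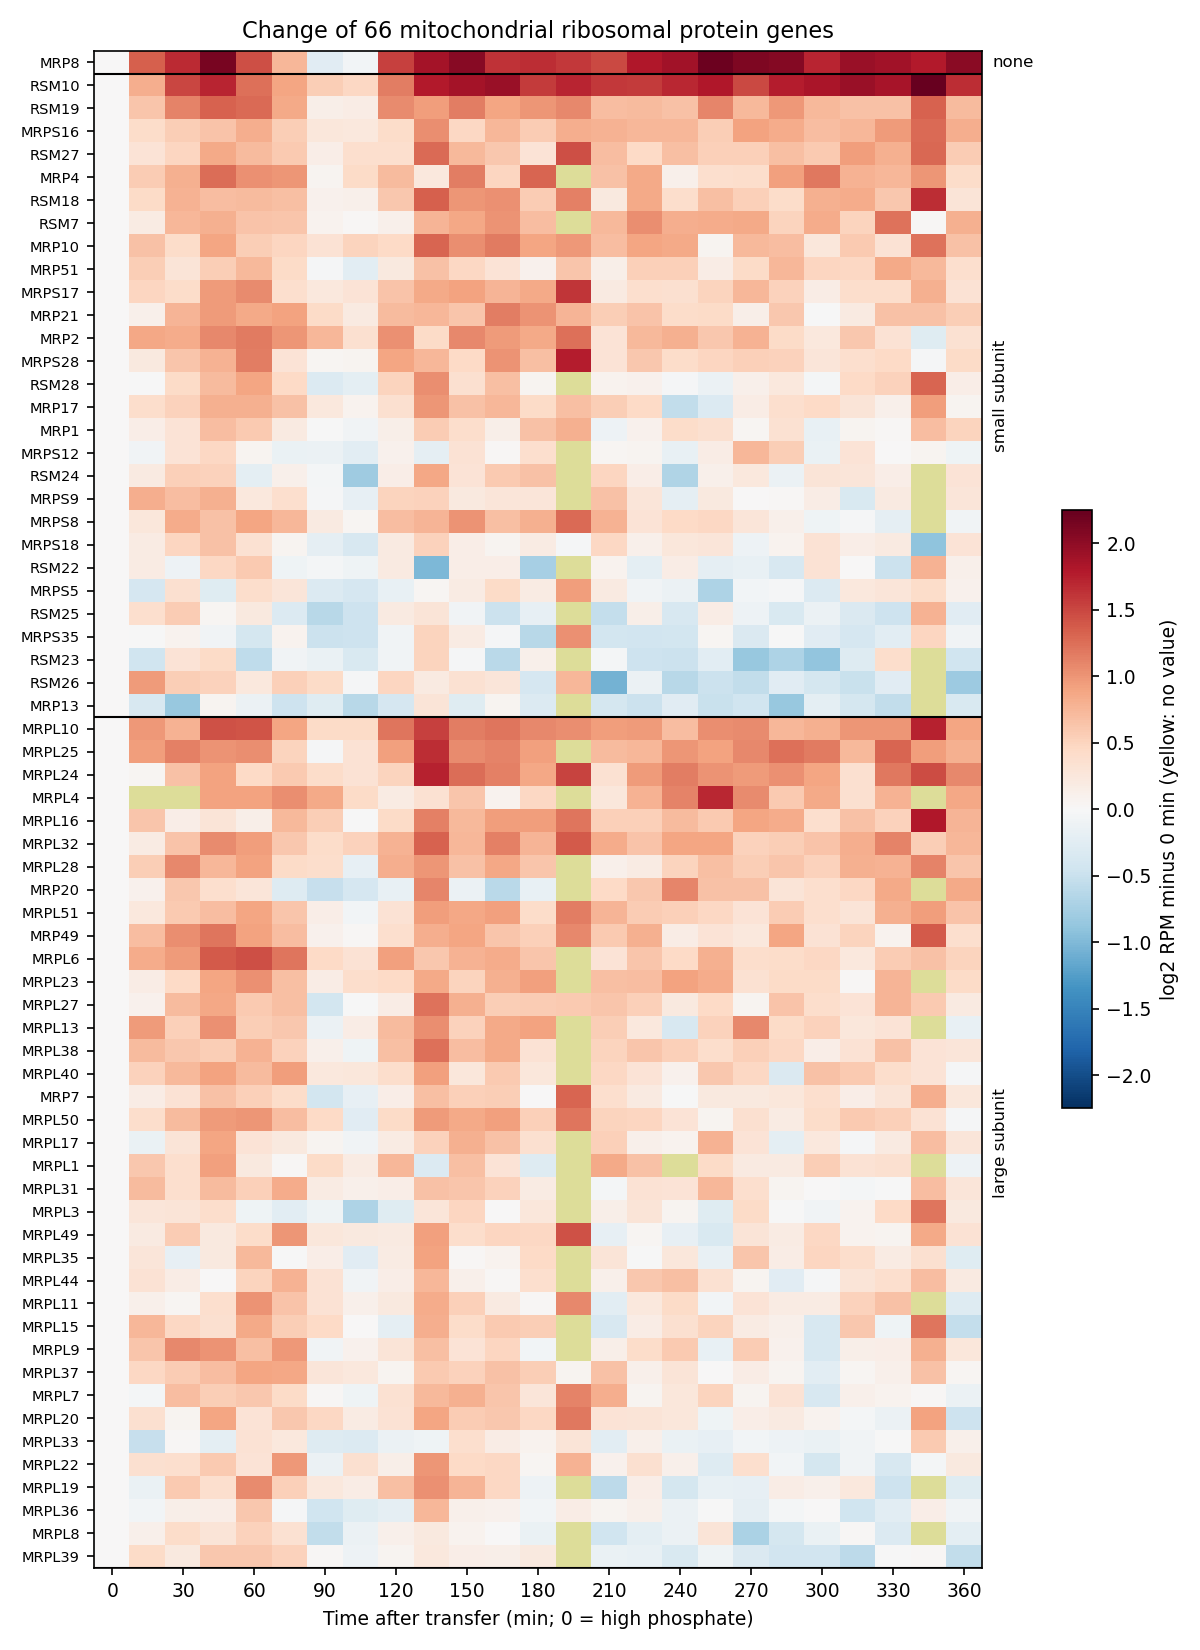
Change from 0 min (log2 RPM, colour) of each of the 66 genes (lines) in each library (columns, time in min), grouped into MRP8, the small subunit and the large subunit and ordered by the difference at 255 to 360 min. Yellow marks libraries without a value, mostly 195 and 345 min. The pale columns at 90 and 105 min lie between the redder stretches at 30 to 75 min and 135 to 165 min.

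RSM10, a small subunit protein with a bacterial homologue, stayed above its start in every library and rose in the later windows. RSM10 (YDR041W, chrIV:539803-540414) had a lowest value of 8.29, a median of 8.62 and a highest value of 9.24 log2 RPM at 255 to 360 min, against 6.80 at 0 min. At 135 to 240 min it had 8.37, 8.51 and 8.73 as lowest, median and highest, and at 15 to 120 min 7.27, 7.82 and 8.52. All 24 libraries without phosphate lay above the high phosphate library, and the value at 105 min was the lowest of them. This was not particular to RSM10, since MRPS16, MRPL10 and RSM19, among other members, also lay above their start in all 24. How often it held over all genes was not computed. The difference at 255 to 360 min was 1.85 (SE 0.34, adjusted p = 0.000164 by limma, 3.61-fold), with a 95% interval of 1.16 to 2.55.

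MRP8, whose protein has no established function, had a similar size of change and a wider early spread. MRP8 (YKL142W, chrXI:178515-179174) had a lowest value of 8.49, a median of 8.76 and a highest value of 8.97 log2 RPM at 255 to 360 min, against 6.77 at 0 min. At 15 to 120 min its values spread from 6.52 to 8.91, with the libraries of 90 and 105 min below the high phosphate library. The difference at 255 to 360 min was 1.97 (SE 0.51, adjusted p = 0.00408 by limma, 3.90-fold), and with libraries centred on their median gene its adjusted p was 0.0792.

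Of the other 4 members that rose at 255 to 360 min, 3 encode large subunit proteins. MRPL10, a homologue of a bacterial large subunit protein, had 6.53, 6.77 and 7.50 log2 RPM as lowest, median and highest at 255 to 360 min, against 5.77 at 0 min (difference 1.03, SE 0.35, adjusted p = 0.0247 by limma). MRPL25, a mitochondria-specific protein, had 6.01, 6.29 and 6.59, against 5.28 (difference 1.02, SE 0.35, adjusted p = 0.0281 by limma). MRPL24, which has a bacterial homologue, had 5.40, 6.05 and 6.50, against 5.04 (difference 1.00, SE 0.36, adjusted p = 0.0349 by limma). In all 3 genes every library of the window lay above the high phosphate library. The same held for members not called in this comparison, MRPL16, RSM18 and MRP4 among them. How often it held over all genes was not computed. MRPS16 of the small subunit had 8.46, 8.73 and 9.18, against 7.91 at 0 min (difference 0.85, SE 0.25, adjusted p = 0.0119 by limma). Whole read numbers were recovered for MRPS16 in 16 of 25 libraries and for RSM25 in 2, while the other 64 members were whole in every library with a value. The reads of MRPS16 and RSM25 may be divided with similar sequence elsewhere, which was not tested. Neither gene overlaps another annotated gene. These 4 calls were lost when libraries were centred on the median gene or on genes listed in every library, and that of MRPL24 also without the filter on listed libraries (adjusted p = 0.0541).

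The lowest differences at 255 to 360 min did not pass the test. MRP13, a mitochondria-specific small subunit protein, had 4.81, 5.21 and 5.44 log2 RPM as lowest, median and highest, against 5.66 at 0 min (difference -0.47, adjusted p = 0.240 by limma). RSM26, a small subunit protein with the fold of a superoxide dismutase, had a difference of -0.47 (adjusted p = 0.414) and RSM23, a GTP-binding protein of the small subunit, one of -0.43 (adjusted p = 0.445). MRP13 passed as lower with libraries centred on the median gene (-0.97, adjusted p = 0.0345) or on genes listed in every library (-0.85, adjusted p = 0.0338).

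At 135 to 240 min against high phosphate, 8 members rose (20.6% of all tested genes were called higher) and 0 fell by limma (5.12% called lower), with 21 members at an unadjusted p under 0.05 (1834 of 4613 genes). The median was 0.45 for the members, against -2.84 for the cytosolic ribosomal protein genes and 0.43 for all genes. The members called were the 6 above together with MRPL32 (0.96, SE 0.30, adjusted p = 0.0183), which has a bacterial homologue, and MRP10 (0.98, SE 0.29, adjusted p = 0.0152), a small subunit protein with paired cysteine motifs. RSM10 differed by 1.72 (adjusted p = 0.000513 by limma) and MRP8 by 1.75 (adjusted p = 0.0123). Without the libraries of 90 and 105 min, in which the course stood near its start, 15 of 65 members were called higher, as were 26.3% of all genes. Those libraries lie outside this window and enter only through the shared spread. They stand out by their values, so the larger count is no separate support. With libraries centred on the median gene 1 member was called higher (5.72% of all genes), and centred on genes listed in every library 2 were (10.5%).

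At 15 to 120 min against high phosphate, 0 members were called higher by limma (0.694% of all tested genes were) and 0 lower (0% were), with 8 at an unadjusted p under 0.05 (647 of 4613 genes). The median was 0.43, against -0.94 for the cytosolic ribosomal protein genes, of which 0 were called, and 0.22 for all genes. Leaving out the libraries of 90 and 105 min, which stood near the level of 0 min, moves this window away from high phosphate by construction. The counts without them are therefore no separate support for a change. With them left out, 7 of 65 members were called higher, RSM10 and MRP8 among them, as were 11.7% of all genes. In that setting 50 of 137 cytosolic ribosomal protein genes were called lower, with a median of -1.22 over the 137, beside 1.76% of all genes.

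**Figure D4:**
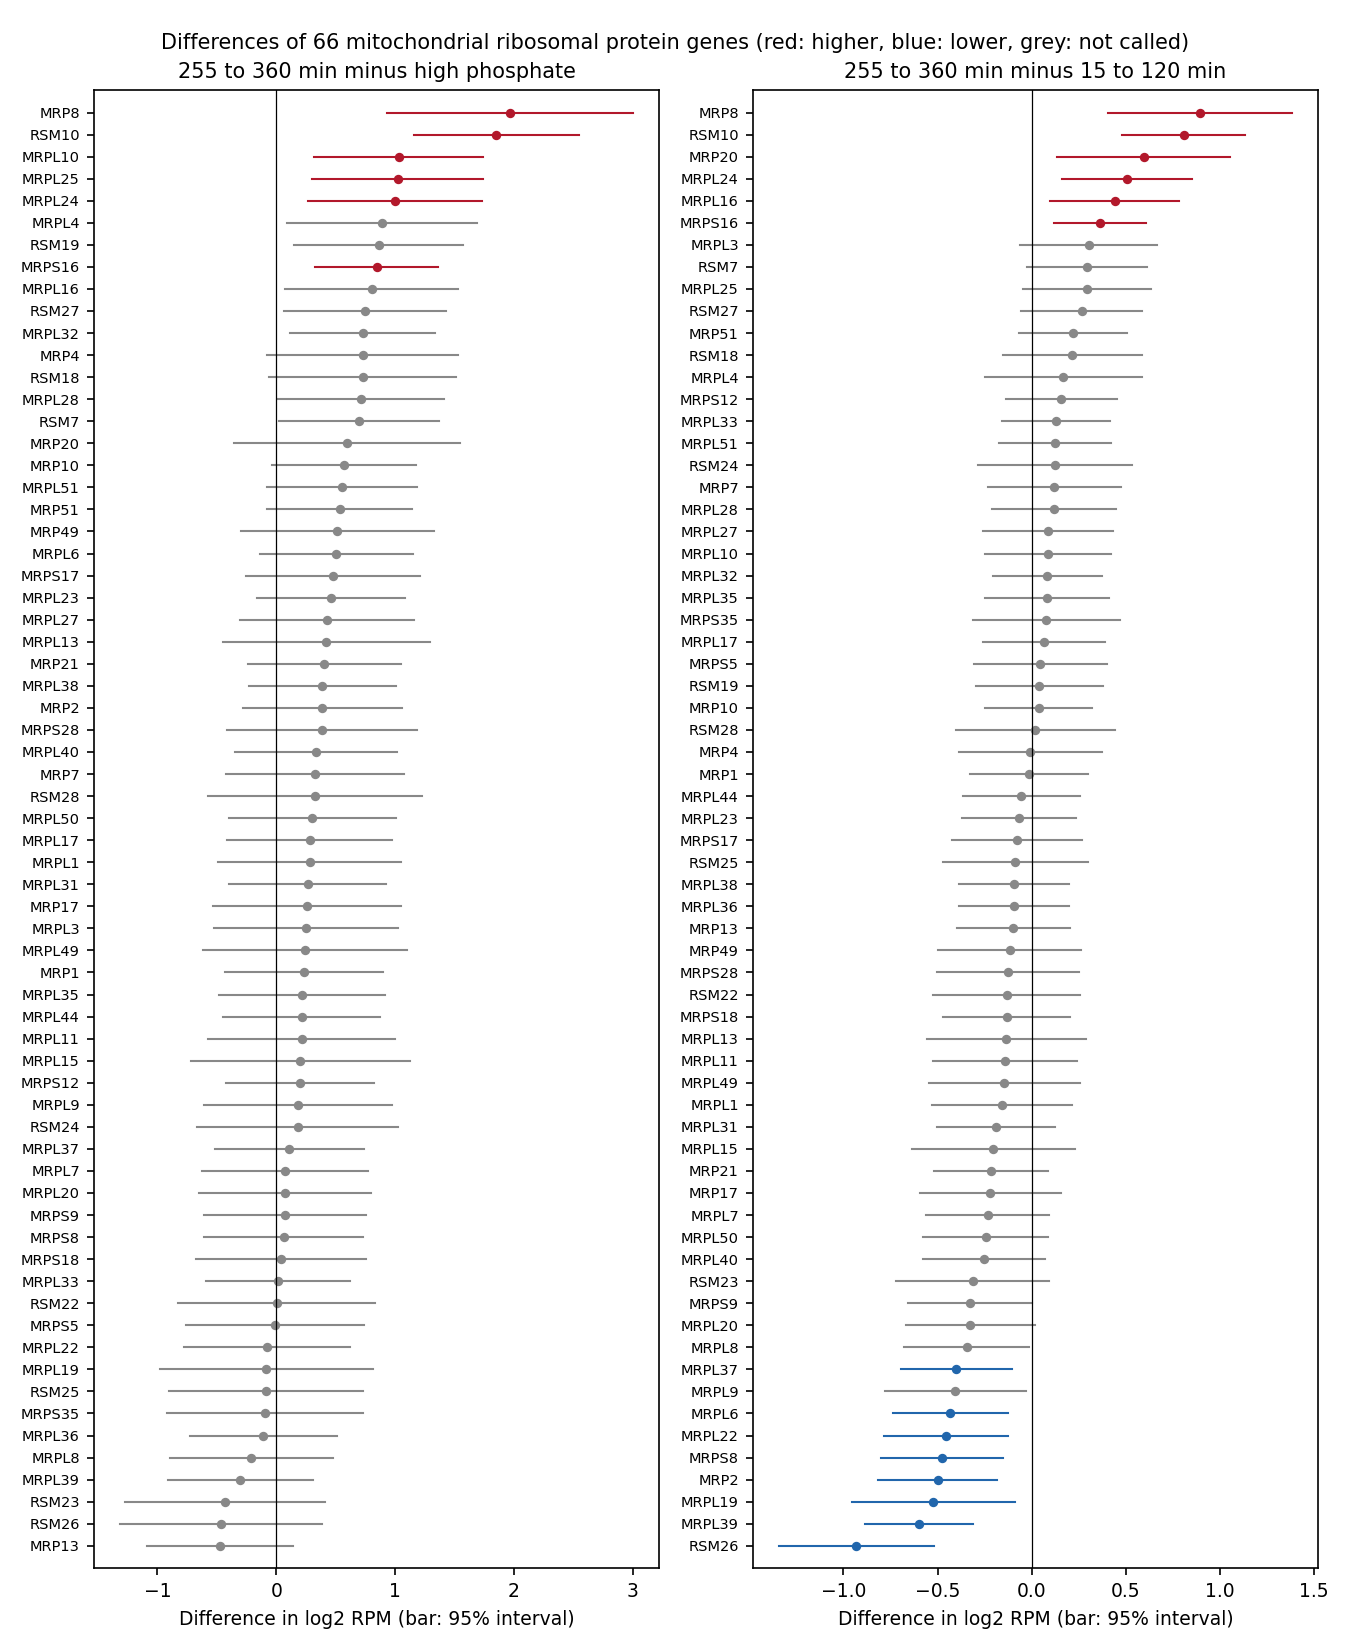
Difference in log2 RPM of each of the 66 genes with its 95% interval from limma, at 255 to 360 min against high phosphate (left) and against 15 to 120 min (right), sorted by size. Red marks genes called higher, blue lower and grey not called. MRP8 and RSM10 lead both panels, and the intervals of most genes include 0.

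The comparison of the last with the first window does not use the high phosphate library. At 255 to 360 min against 15 to 120 min, 6 members rose (31.5% of 4634 tested genes were called higher) and 8 fell (8.85% called lower). The median was -0.07 for the members, against -2.00 for the cytosolic ribosomal protein genes, of which 135 of 137 fell, and 0.23 for all genes. In the large subunit 3 members rose and 5 fell (median -0.10 over 37), and in the small subunit 2 rose and 3 fell (median -0.01 over 28). With libraries centred on the median gene, 1 member was called higher and 24 lower, and centred on genes listed in every library, 2 were higher and 16 lower. The first of these settings called 13.4% of all genes higher and 17.6% lower, and the second 23.3% higher and 13.5% lower. The split moved further towards lower values with the scaling, while RSM10 was called higher and all 8 fallers lower under each of them.

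The 6 that rose were MRP8 (0.89, SE 0.24, adjusted p = 0.00377), RSM10 (0.81, SE 0.16, adjusted p = 0.000201), MRP20 (0.59), MRPL24 (0.51), MRPL16 (0.44) and MRPS16 (0.36, SE 0.12, adjusted p = 0.0162), all by limma. MRP20 belongs to a family of proteins at the exit of the peptide tunnel, and MRPL16 to a family near the catalytic centre. MRP20 lost its call without any of 8 single libraries, with adjusted p up to 0.0721, and MRPL16 without any of 6, with adjusted p = 0.0867 when the shallow library of 345 min was left out. MRPS16, MRPL16 and MRP20 were not called without the libraries of 90 and 105 min (adjusted p = 0.0744, 0.0737 and 0.139).

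RSM26 was the member with the largest fall. RSM26 (YJR101W, chrX:618234-619034) had 5.67, 6.00 and 6.22 log2 RPM as lowest, median and highest in 7 libraries at 255 to 360 min, against 6.47, 6.99 and 7.45 in 8 libraries at 15 to 120 min. The windows did not overlap, and how often this held over all genes was not computed. The difference was -0.93 (SE 0.20, adjusted p = 0.000525 by limma, 0.524-fold). MRPL39, a small basic protein with a bacterial homologue, had 6.12, 6.33 and 6.73, against 7.03 as the median and 6.59 to 7.32 as the range at 15 to 120 min (difference -0.60, SE 0.14, adjusted p = 0.00122 by limma). These windows overlapped.

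The remaining fallers were smaller in size. MRP2, a small subunit protein with a bacterial homologue, had a median of 6.97 at 255 to 360 min, against 7.51 at 15 to 120 min (difference -0.50, SE 0.15, adjusted p = 0.0111 by limma). MRPS8, MRPL22 and MRPL6, which also have bacterial homologues, differed by -0.48 (adjusted p = 0.0170), -0.45 (0.0243) and -0.43 (0.0213). MRPL37 differed by -0.40 (adjusted p = 0.0274) and MRPL19, of the family at the factor-binding base of the large subunit, by -0.52 (adjusted p = 0.0494). Single libraries ended some of these calls. Leaving out 75 min, 5 members were called lower, and the share of all genes called in that setting was not counted. There MRPL22 had an adjusted p of 0.0608 and MRPL37 of 0.0597 by limma. MRPL37 was also lost without 60 or 300 min. MRPL19 was lost without any of 13 single libraries, with adjusted p up to 0.103. MRPL19, MRP4 and MRPL51 overlap another annotated gene, and it is not stated whether strand was used in counting.

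**Figure D5:**
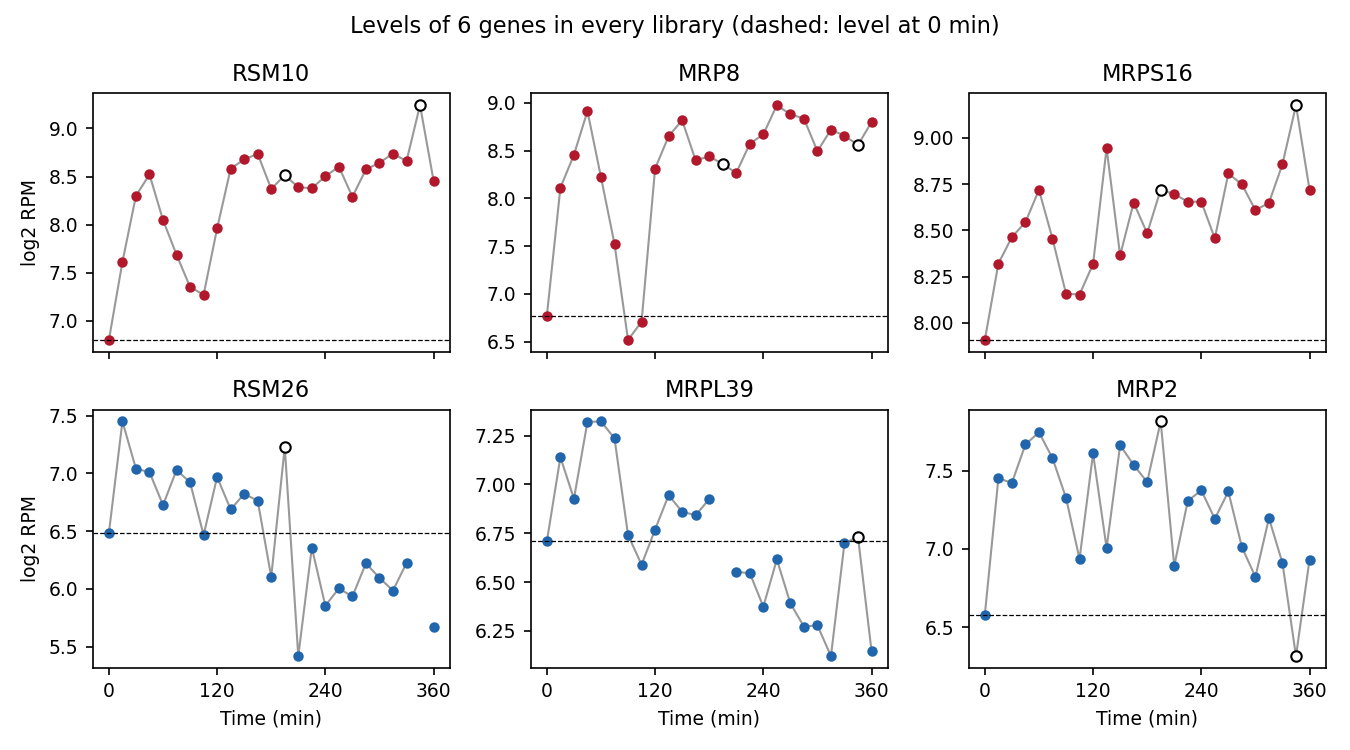
Level (log2 RPM) of 6 members in each library against time (min), with RSM10, MRP8 and MRPS16 above and RSM26, MRPL39 and MRP2 below. Dashed lines give the level at 0 min and open circles the shallow libraries of 195 and 345 min. RSM10 and MRPS16 stay above their start throughout, whereas RSM26 lies below its start in every library with a value from 210 min on.

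The spelling of the downstream motif differed between the members that fell and those that rose, a grouping chosen after the values were seen and not tested. At 255 to 360 min against 15 to 120 min, the 32 members whose nearest motif was TGTAAATA included all 8 fallers and 1 riser, RSM10, with a median of -0.13. The 19 with TGTATATA included 0 fallers and 4 risers (MRP20, MRPL24, MRPL16 and MRPS16), with a median of 0.04. The 12 with TGTACATA included none of either, with a median of 0.02. Over all genes, 31.5% were called higher and 8.85% lower in this comparison. The 4 risers with TGTATATA lost their calls with libraries centred on the median gene or on genes listed in every library. More members were called lower with these centrings, and their spellings were not counted. Against high phosphate at 255 to 360 min, the medians were 0.25, 0.46 and 0.23. Other genes with TGTANATA had a median of 0.15 between the last and first windows, against 0.24 for genes without it. PUF3 itself was listed in 19 libraries and differed by 0.19 (SE 0.25, adjusted p = 0.574 by limma) between these windows.

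Set directly against the mean of the cytosolic ribosomal protein genes in the same library, all 66 members were called higher at 255 to 360 min against high phosphate (96.1% of all tested genes were), with a median of 3.10 and a range of 2.33 to 4.78. Against 15 to 120 min all 66 were called higher as well (97.1% of all tested genes were), with a median of 1.82 and a range of 0.96 to 2.79. These shares lie near those of all genes, whose medians were 3.23 and 2.13, so the separation from the cytosolic ribosomal proteins was common to nearly every gene tested and was somewhat smaller for the median member.

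Other genes of mitochondrial translation also gave few calls. At 255 to 360 min against high phosphate, 1 of 13 listed genes of the mitochondrial ribosome outside the naming rule rose. This was YMR31 (1.48, SE 0.44, adjusted p = 0.0114 by limma), whose protein is now known as a subunit of the alpha-ketoglutarate dehydrogenase and not as a ribosomal protein. MEF2, a mitochondrial elongation factor homologue, rose by 1.62 (SE 0.53, adjusted p = 0.0236) as 1 of 9 translation factors. SLM5, an asparaginyl-tRNA synthetase, rose by 1.46 (SE 0.41, adjusted p = 0.00913) as 1 of 11 synthetases. Translational activators gave 2 of 11, PET494 (1.24) and CBS2 (1.13), and assembly and modification genes 2 of 9, the rRNA methyltransferases MRM1 (1.42) and MRM2 (1.30). None of these lists held a call in the lower direction, and the 25% of all genes called higher is the share to read these counts against.

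Nuclear genes of the respiratory chain and the ATP synthase, most of whose complexes also hold proteins made by the mitochondrial ribosome, rose in 28 of 32 cases with a median of 1.40 at 255 to 360 min against high phosphate. QCR10 of the cytochrome bc1 complex differed by 2.46 (SE 0.33, adjusted p = 4.66e-06 by limma) and SDH4 of succinate dehydrogenase, a complex encoded wholly in the nucleus, by 2.27 (SE 0.45, adjusted p = 0.000378). Against 15 to 120 min, 30 of 32 rose with a median of 0.84, where the members had a median of -0.07. HAP4, the activating subunit of the Hap complex, was listed in 14 libraries and had no value at 0 min. Between these windows, 3 of 9 translation factors, 4 of 11 translational activators and 3 of 9 assembly genes rose, beside 31.5% of all genes. On the list of ribosomal genes outside the naming rule 1 of 13 rose, YMR31, named above as not a ribosomal protein. Of the same lists 1 translation factor and 1 ribosomal gene fell, beside 8.85% of all genes, and both are named after their values were seen. MNP1, a large subunit protein outside the naming rule, fell by 0.56 on the log2 scale (SE 0.17, adjusted p = 0.00998 by limma), and TUF1, the mitochondrial elongation factor Tu, fell by 0.39 (SE 0.15, adjusted p = 0.0453).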

How the data were processed

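Total RNA was turned into cDNA and sequenced on an Illumina instrument, per the labels' protocols. The submitters' processing notes name Bowtie and the genome build R64. The sources used here do not give the version of Bowtie, the annotation, the counter or any filter. The authors deposited log2 RPM values, and the spacing of low values gave the depth of each library in reads (93.5% to 95.4% of values within 0.02 of a whole number). The 24 libraries without phosphate formed 3 windows of 8 neighbouring times. A linear model in limma 3.58.1 (R 4.3.3) was fitted to the log2 values, taking each window and the 0 min library as a group, for genes listed in at least 6 of 8 libraries per window, with Benjamini-Hochberg adjustment over all genes tested. In the comparison with cytosolic ribosomal proteins, their mean log2 value was subtracted in each library. On simulated data with 4613 genes, 40 of 50 genes changed by 1.5 (log2) and 33 of 50 changed by -1.5 were recovered at 255 to 360 min against high phosphate, and 50 of 50 of each against 15 to 120 min, with 13 false calls in each comparison. Members with values were those called (at most 10 per comparison), the 3 highest and lowest differences and levels, MRP8 and VAR1, and for other lists the 2 largest differences. The members, lists and windows were chosen with earlier results of these data known. Motifs and coordinates come from RefSeq R64, in which all 66 members were matched.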

Additional observations from a re-analysis of the deposited data

Results flagged for a closer look

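Of 75 groups of 6 to 8 libraries tested, 6 held a library far from the others, where chance alone gives about 1 in 20. At 345 min, a shallow library, RSM10 was at 9.24 log2 RPM, against a median of 8.62 in its window. In the same library MRPL10 was at 7.50 against 6.77, MRPL16 at 7.41 against 6.31 and MRPL37 at 8.08 against 7.47. The median change of the 33 members listed in every library was 0.79 there, against 0.38 in the window. The part that depth plays was not tested, and all genes listed in every library were also higher there, at 0.60. MRPL25 was at 6.94 log2 RPM at 135 min, against 6.27 in its window, at the time when the median of the members was highest outside the shallow libraries. Between 255 to 360 min and 15 to 120 min, 6 members were called higher and 8 lower by limma. The 6 include MRP8, which is not an established ribosomal protein, and of the others RSM10 alone kept its call with libraries centred on the median gene. The difference between members was not tested.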

How the results depend on the processing

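Against high phosphate at 255 to 360 min, members called higher (6) numbered 1 with libraries centred on the median gene and 2 centred on genes listed in every library, and those called lower (0) numbered 2 and 1. At 135 to 240 min, members called higher (8) numbered 1 and 2 with these centrings and 15 without 90 and 105 min. At 15 to 120 min they numbered 7 without 90 and 105 min instead of 0. Those libraries stood near the level of 0 min, so the larger counts without them follow from their values. Between the last and first windows, members called higher (6) numbered 1 and 2 with the centrings and 3 without 90 and 105 min, and those called lower (8) numbered 24 and 16, or 3 among the 33 members listed in every library. Without 90 and 105 min 25.55% of all genes were called higher in this comparison. Among all genes listed in every library 14.88% were called lower. Leaving out single libraries gave 6 to 7 called higher at 255 to 360 min, 8 to 12 at 135 to 240 min, 0 at 15 to 120 min, and 4 to 6 higher and 5 to 10 lower between the last and first windows. Relative to cytosolic ribosomal proteins the count stayed at 65 to 66 without single libraries and was 33 where only 33 members are tested. The shares of all genes called without single libraries were not counted. These ranges therefore show only how the member counts vary and cannot be read against all genes. Of the values of named members under the alternatives, 923 kept their direction and their side of the threshold, 70 lost the call and 2 gained it, and 0 changed sign while called. The cause of the change with centring was not tested. Counts of 10 to 544 reads limit what single libraries show, and the library at 0 min could not be left out of the comparisons with high phosphate. No paired analysis was possible because each time point has 1 library and the replicate numbers only name them.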
